A study of Mus musculus with 9 samples.

Results

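The 10 genes described here make, remove or sense prostaglandins. They were taken from the deposited table by gene symbol, but were chosen with earlier results of these data known. Each symbol matched 1 row, so they are 10 of 54532 genes. By role they are the cyclooxygenases Ptgs1 and Ptgs2, the terminal synthases Ptges, Ptges2, Ptges3, Ptgds and Ptgis, the degrading enzyme Hpgd, and the receptors Ptger2 and Ptger4. Their levels come from RNA sequencing of eye tissue labelled as flat mounts of choroid and retina from C57BL/6 mice, with 3 libraries in each of 3 groups. BetP-Gel@Ran is the group whose treatment label gives an intravitreal injection of BetP-Gel, sampled 3 months later. CNV, an abbreviation the labels do not spell out, is the group titled wet-AMD, after wet age-related macular degeneration, in which vessels grow beneath the retina. The Untreated group carries no treatment. No age, no allele, no way of producing CNV and no sampling time for CNV and Untreated mice are stated. Whether mice given the gel also carried CNV is not stated either, so time, lesion and treatment cannot be told apart. The series concerns a hydrogel meant to aid ranibizumab, an antibody fragment against human vascular endothelial growth factor, which the sample titles abbreviate but the treatment label of the gel group leaves out. Since the libraries of a group are not stated to be separate animals, the p-values refer to the spread among libraries, which may be technical.

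Prostaglandins are short-lived lipid signals made from arachidonic acid, which phospholipases A2 free from membranes. A cyclooxygenase converts it to prostaglandin H2: the product of Ptgs1 is present in many resting cells, whereas that of Ptgs2 is made within hours of an inflammatory stimulus. Terminal synthases then turn prostaglandin H2 into prostaglandin E2 (PGE2), D2 or prostacyclin, and 15-hydroxyprostaglandin dehydrogenase, encoded by Hpgd, inactivates PGE2. In the eye, PGE2 is known for its part in vascular leakage, pain and pressure, and cyclooxygenase inhibitors are used after eye surgery.

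Promoter sequences of 9 of the 10 genes were found in RefSeq (build GRCm38.p6), all but Ptgis. Those of Ptgs2 and Ptges are shown because both genes were high in CNV libraries, and that of Ptgs1 because it encodes the same enzyme activity as Ptgs2 without being called. Each runs from 250 bases before to 30 bases after the RefSeq transcript start, and capitals mark matches to the motifs named after them. Ptgs2 lies on the + strand at chr1:150099781-150100060, Ptges on the - strand at chr2:30903268-30903547, which is inside the span that the deposited table gives for the gene, and Ptgs1 on the + strand at chr2:36230176-36230455.
Ptgs2: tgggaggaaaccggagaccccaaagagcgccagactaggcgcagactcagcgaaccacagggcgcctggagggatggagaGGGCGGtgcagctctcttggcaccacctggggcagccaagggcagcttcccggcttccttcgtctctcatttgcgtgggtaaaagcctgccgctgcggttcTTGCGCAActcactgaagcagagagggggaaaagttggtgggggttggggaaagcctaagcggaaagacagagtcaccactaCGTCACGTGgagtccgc
Ptges: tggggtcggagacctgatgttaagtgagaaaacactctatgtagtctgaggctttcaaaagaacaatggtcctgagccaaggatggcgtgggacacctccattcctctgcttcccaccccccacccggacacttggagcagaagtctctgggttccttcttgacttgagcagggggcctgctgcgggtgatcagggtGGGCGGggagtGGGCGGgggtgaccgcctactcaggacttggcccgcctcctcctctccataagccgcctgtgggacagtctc
Ptgs1: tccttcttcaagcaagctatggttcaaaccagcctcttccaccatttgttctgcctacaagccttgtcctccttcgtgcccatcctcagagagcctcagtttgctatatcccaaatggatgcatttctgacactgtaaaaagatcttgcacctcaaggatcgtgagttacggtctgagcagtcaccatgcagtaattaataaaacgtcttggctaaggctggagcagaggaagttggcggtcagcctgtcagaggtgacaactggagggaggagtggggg

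A total of 5 motifs were searched on both strands: the E-box CACGTG, the cyclic AMP response half-site TGACG, the palindrome TTGCGCAA bound by C/EBP proteins, the GC box GGGCGG and the TATA box TATAAA. The Ptgs2 window held an E-box at bases 17 to 22 after the start, which overlaps a half-site on the other strand at bases 14 to 18, the C/EBP palindrome at bases -69 to -62 and a GC box at bases -170 to -165. The C/EBP palindrome is in 0.18% of 32851 mouse promoter windows of this length, the E-box in 6.79% and the half-site in 19.9%. Ptges held a GC box at bases -53 to -48 and another at bases -42 to -37, a motif found in 34.7% of windows, and Ptgs1 held none of the 5. Ptges2 was the only other of these genes with an E-box, and Ptges3 the only other with a half-site. GC boxes were also found in Ptges3, Hpgd and Ptger4, so 5 of the 9 windows held one. A match to the TATA box, present in 13.1% of windows, was found in Hpgd alone, at bases 5 to 10 after the start and not before it. These are matches of letters in a window and not measured binding.

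The libraries held 16990118 to 18753737 reads on genes. Values are FPKM, fragments scaled to gene length and library size, which allow levels to be compared between genes. Markers of rods and of the pigment epithelium, the tissues on the label, were present in every library, beside those of other tissues. Summed over 7 corneal epithelium markers they reached 11948 to 14327 FPKM in BetP-Gel@Ran, 7874 to 9332 in CNV and 16225 to 19089 in the Untreated group. The 8 rod markers summed to 1427 to 1983 FPKM in BetP-Gel@Ran, 1111 to 1353 in CNV and 2999 to 4036 in Untreated libraries. Lens markers summed to 1017 to 4029 FPKM in BetP-Gel@Ran and 14.3 to 104 in CNV libraries, and stood apart in Untreated replicate 3, at 12183 FPKM beside 279 and 325 in the other Untreated libraries. Without that library 6, 3 and 2 prostaglandin genes were called in the comparisons given next, the same numbers as with it. The CNV lens sums lay below all those of both other groups. Where the lens sum is used as a covariate, it therefore cannot be told apart from the difference between CNV and either other group.

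Prostaglandin genes differed between CNV and Untreated libraries in both directions. Ptgs2, Ptges and Ptges3 were higher in CNV, and Ptges2, Ptgis and Hpgd were lower (limma on log2(FPKM + 1), Benjamini-Hochberg adjusted p under 0.05). In BetP-Gel@Ran libraries Ptgs2 and Ptges were lower than in CNV and Hpgd was higher. Against Untreated libraries, Ptgis and Ptges2 were lower in BetP-Gel@Ran. In whole tissue, fewer cells of a type and less RNA per cell cannot be told apart. Genes were tested where at least 3 of the 9 libraries reached 1 FPKM, which 8 of the 10 genes did. Ptger2 and Ptger4 did not, and Ptgs2 passed only through its 3 CNV libraries, so its inclusion depended on its being high there.

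For CNV against Untreated, 6 of the 8 tested genes were called, against 44.6% of all 14086 tested genes. Of them 3 were higher, against 22.5% of all tested genes, and 3 lower, against 22.1%. For BetP-Gel@Ran against CNV, 3 of 8 were called, against 14.1% of all tested genes, with 1 higher, against 5.81%, and 2 lower, against 8.27%. For BetP-Gel@Ran against Untreated, 2 of 8 were called and both were lower. There 34.2% of all tested genes were called, 16.1% higher and 18.1% lower, so that count is no larger a share than the background. Without Ptgs2, whose entry into the test was tied to its level in CNV, 5 of 7 were called for CNV against Untreated, 2 of 7 for BetP-Gel@Ran against CNV and 2 of 7 for BetP-Gel@Ran against Untreated. The median log2 fold change of the 8 genes was -0.01, -0.14 and -0.08 in the 3 comparisons, beside 0.01, 0.00 and -0.01 over all tested genes. Any 2 of the comparisons share a group of libraries, and each is therefore given with its own values. The BetP-Gel@Ran against CNV comparison depended most on single libraries: without 1 library at a time, all genes called numbered 446 to 3215, where the full set gave 1983.

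**Figure D1:**
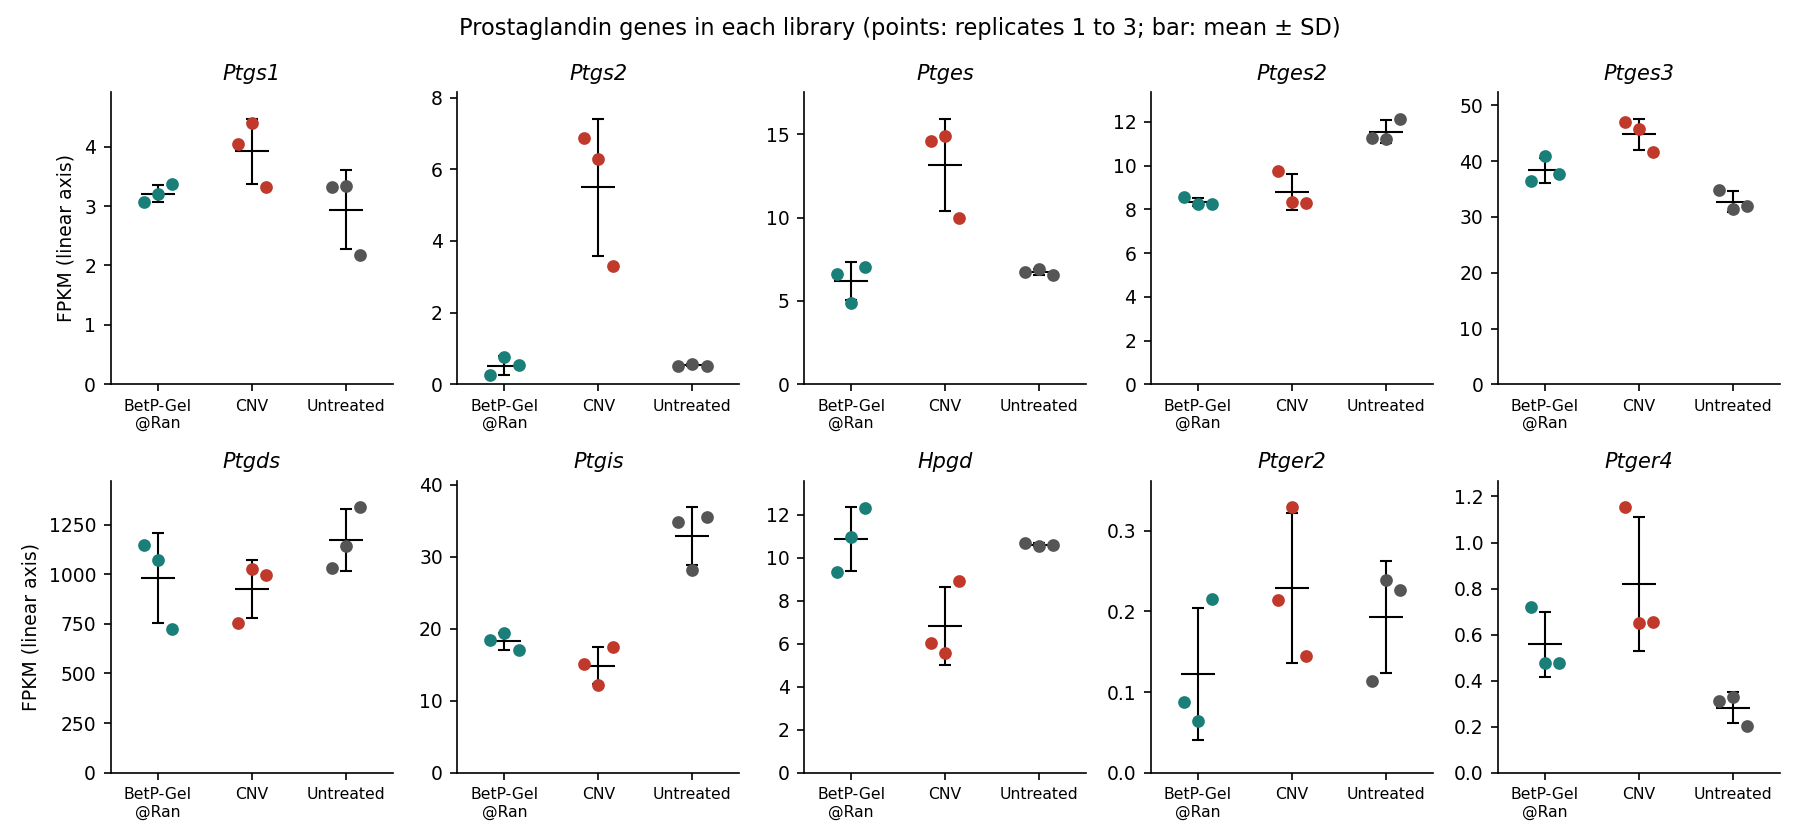
FPKM of each of the 10 genes (1 panel each, linear axes from 0) in the 3 BetP-Gel@Ran, 3 CNV and 3 Untreated libraries, with the mean ± SD as a black bar. Ptgs2 and Ptges stand highest in the CNV libraries and Ptgis in the Untreated ones, while the receptor panels stay below 1.2 FPKM.

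Ptgs2, the inducible cyclooxygenase gene (ENSMUSG00000032487, mm10 chromosome 1, 150100031 to 150108227, + strand), had the largest difference among the 8 tested genes. It was at 0.249, 0.774 and 0.527 FPKM in BetP-Gel@Ran replicates 1 to 3, at 6.89, 6.30 and 3.30 FPKM in CNV replicates 1 to 3, and at 0.515, 0.578 and 0.514 FPKM in Untreated replicates 1 to 3. Every CNV library was above all 6 others, and the BetP-Gel@Ran values lay on either side of the Untreated ones. Mean FPKM was 5.49 ± 1.92 in CNV and 0.535 ± 0.0367 in Untreated libraries (SD, n = 3 each), a ratio of 10.3, and the log2 fold change was 2.03 ± 0.22 (SE; limma adjusted p = 1.18e-04). The BetP-Gel@Ran mean of 0.517 ± 0.263 FPKM (SD, n = 3) was 90.6% lower than the CNV mean, with a fitted log2 difference of -2.06 ± 0.22 (limma adjusted p = 0.00142). Against Untreated libraries, BetP-Gel@Ran differed by -0.03 with a 95% interval of -0.52 to 0.46 (limma adjusted p = 0.924). That interval is on the log2(FPKM + 1) scale, which understates fold changes of low genes. It therefore allows larger fold differences in FPKM, in either direction. Because the filter let Ptgs2 in through its CNV values, its p-values without any filter are given too: 4.99e-04 for CNV against Untreated and 0.00560 for BetP-Gel@Ran against CNV (limma, adjusted over 29374 genes). These levels rest on 20 to 64 reads in BetP-Gel@Ran, 282 to 625 in CNV and 38 to 47 in Untreated libraries. With the summed lens markers as a covariate the log2 fold change against CNV was -1.98 and was not called (limma adjusted p = 0.0750).

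Ptgs1, the constitutive cyclooxygenase gene (ENSMUSG00000047250, chromosome 2, 36230426 to 36252272, + strand), had 3.07, 3.19 and 3.36 FPKM in BetP-Gel@Ran replicates 1 to 3, then 4.04, 4.40 and 3.31 in CNV and 3.32, 3.33 and 2.17 in Untreated replicates. CNV replicate 3 lay within the range of the other groups, so no group stood clear of another. The log2 fold change of CNV against Untreated was 0.33 ± 0.13 (limma adjusted p = 0.0706). It was called without CNV replicate 3 (adjusted p = 0.0366) and with reads scaled to the total of their library (adjusted p = 0.0404). BetP-Gel@Ran was not called against CNV (log2 -0.22, limma adjusted p = 0.285) or against Untreated (0.11, adjusted p = 0.557). With the lens covariate the sign turned for CNV against Untreated (log2 -0.016, adjusted p = 0.934) and for BetP-Gel@Ran against CNV (0.19, adjusted p = 0.468).

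Because the cyclooxygenase genes are compared per length, the share of their summed FPKM that came from Ptgs2 can be given. It was 7.51%, 19.5% and 13.5% in BetP-Gel@Ran replicates 1 to 3, against 63.0%, 58.9% and 49.9% in CNV and 13.4%, 14.8% and 19.2% in Untreated replicates. Ptgs1 thus supplied most cyclooxygenase transcripts in all BetP-Gel@Ran and Untreated libraries, and Ptgs2 most of them in CNV replicates 1 and 2.

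Of the genes whose products make PGE2, Ptges, which encodes the inducible microsomal synthase that works with the Ptgs2 product (ENSMUSG00000050737, chromosome 2, 30889471 to 30929863, - strand), moved with Ptgs2. It had 6.62, 4.89 and 7.02 FPKM in BetP-Gel@Ran, 14.6, 14.9 and 9.98 in CNV and 6.73, 6.93 and 6.54 in Untreated replicates 1 to 3. All CNV libraries were higher than the other 6, and BetP-Gel@Ran and Untreated overlapped. The log2 fold change was 0.85 ± 0.16 for CNV against Untreated (limma adjusted p = 0.00210) and -0.97 ± 0.16 for BetP-Gel@Ran against CNV (limma adjusted p = 0.00889). For BetP-Gel@Ran against Untreated it was -0.12, with a 95% interval of -0.47 to 0.23 (limma adjusted p = 0.587). With the lens markers as a covariate the first 2 log2 fold changes were 0.64 and -0.72, and neither was called (adjusted p = 0.0626 and 0.184).

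Ptges2, the gene of a membrane-associated PGE2 synthase (ENSMUSG00000026820, chromosome 2, 32395896 to 32405772, + strand), went the other way. It had 8.55, 8.26 and 8.23 FPKM in BetP-Gel@Ran, 9.75, 8.34 and 8.31 in CNV and 11.3, 11.2 and 12.2 in Untreated replicates 1 to 3, so the Untreated libraries stood above all others. Its log2 fold change was -0.36 ± 0.08 in CNV (limma adjusted p = 0.00434) and -0.42 ± 0.08 in BetP-Gel@Ran (limma adjusted p = 0.00314), each against Untreated. BetP-Gel@Ran and CNV overlapped, at a log2 difference of -0.07 with a 95% interval of -0.24 to 0.11 (limma adjusted p = 0.586). With the lens markers as a covariate the CNV fold change was -0.28 on the log2 scale and was not called (adjusted p = 0.0885).

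Ptges3, which encodes the cytosolic synthase that is also the Hsp90 cochaperone p23 (ENSMUSG00000071072, chromosome 10, 128058954 to 128077272, + strand), was the most abundant of the PGE2 synthase genes. Its levels were 36.5, 40.9 and 37.8 FPKM in BetP-Gel@Ran, 47.0, 45.8 and 41.7 in CNV and 34.9, 31.5 and 31.9 in Untreated replicates 1 to 3. The groups did not overlap, with CNV highest and Untreated lowest. The only call was CNV against Untreated (log2 0.44 ± 0.08, limma adjusted p = 0.00183). BetP-Gel@Ran was not called against CNV (log2 -0.22, limma adjusted p = 0.0921) or against Untreated (0.22, adjusted p = 0.0555), but both were called without CNV replicate 3 (adjusted p = 0.0461 and 0.0431). The last was also called under 4 other settings (adjusted p = 0.0122 to 0.0491). Reads of Ptges3 are uncertain, since the table lists a processed pseudogene copy, Ptges3-ps, at 40.0 to 80.0 FPKM.

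Per length, Ptges made up 12.8%, 9.05% and 13.2% of the summed FPKM of the PGE2 synthase genes in BetP-Gel@Ran, 20.5%, 21.6% and 16.7% in CNV and 12.7%, 14.0% and 12.9% in Untreated replicates 1 to 3. The CNV shares were above all others, although Ptges3 remained the largest of these transcripts in every library.

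**Figure D2:**
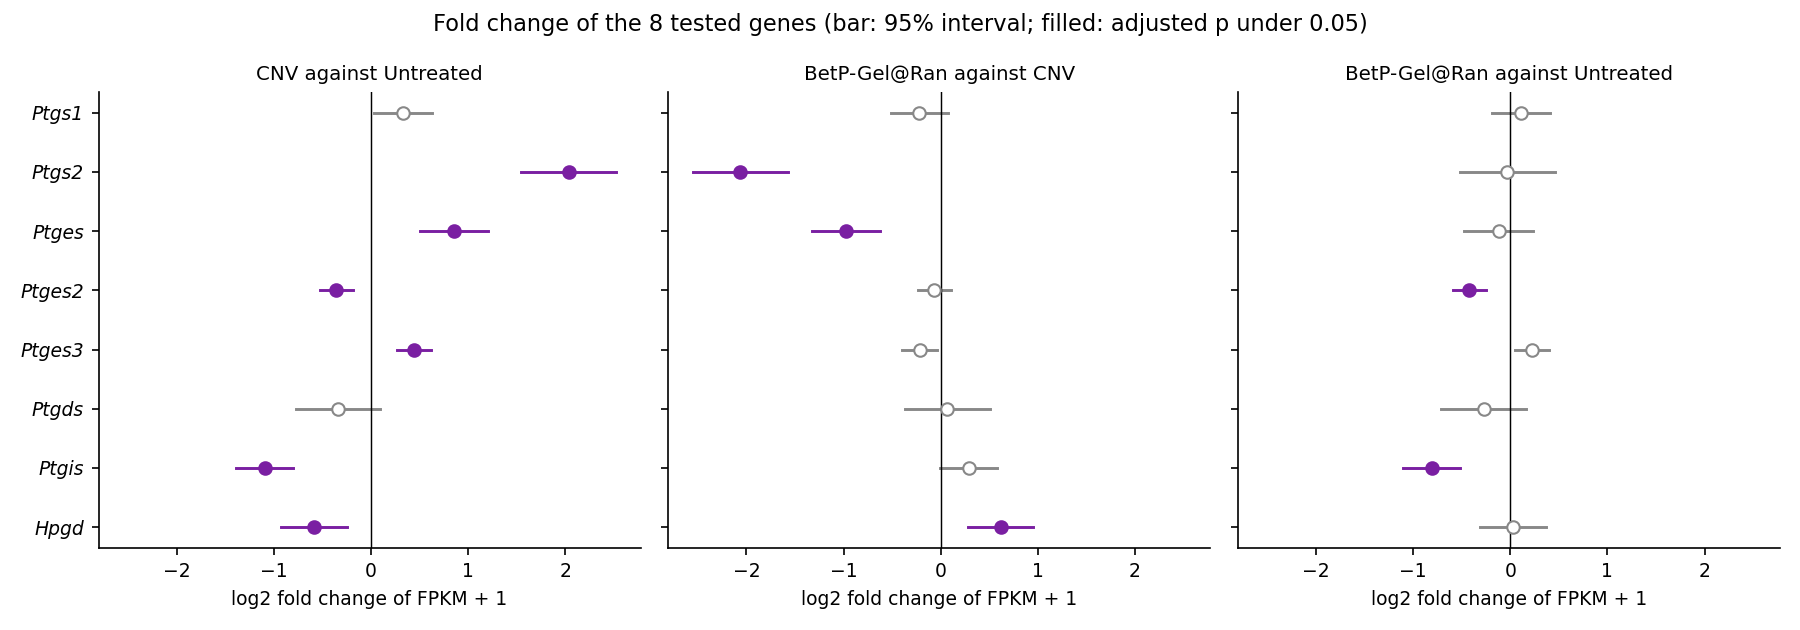
Log2 fold change of FPKM + 1 (x axis) for the 8 tested genes (rows) in the 3 comparisons, with bars for the 95% interval and filled points where the limma adjusted p is under 0.05. Ptgs2 is at 2.03 in CNV against Untreated and at -2.06 in BetP-Gel@Ran against CNV, and in BetP-Gel@Ran against Untreated Ptges2 and Ptgis are filled.

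Ptgis, the prostacyclin synthase gene of vessel walls and stroma (ENSMUSG00000017969, chromosome 2, 167191805 to 167240604, - strand), was low in both CNV and BetP-Gel@Ran libraries. It had 18.4, 19.4 and 17.0 FPKM in BetP-Gel@Ran, 15.1, 12.2 and 17.4 in CNV and 34.8, 28.2 and 35.5 in Untreated replicates 1 to 3. Every Untreated library was above the other 6, and CNV replicate 3 overlapped BetP-Gel@Ran. Mean FPKM was 54.7% lower in CNV than in Untreated libraries (log2 -1.10 ± 0.13, limma adjusted p = 2.06e-04) and 44.4% lower in BetP-Gel@Ran than in Untreated ones (log2 -0.81 ± 0.13, limma adjusted p = 0.00202). BetP-Gel@Ran was not called against CNV (log2 0.29, 95% interval -0.0046 to 0.58, limma adjusted p = 0.162), but was without CNV replicate 3 (0.40, adjusted p = 0.0497), while the sign turned with the lens covariate (-0.0085, adjusted p = 0.986). Both calls against Untreated held under all 20 alternatives. An unstranded library cannot tell Ptgis from the overlapping opposite-strand transcript 1110018N20Rik, listed at 1.70 to 4.24 FPKM.

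Stromal and vessel markers were not alike beside Ptgis. The 8 fibroblast markers summed to 704 to 876 FPKM in BetP-Gel@Ran, 507 to 678 in CNV and 1025 to 1181 in the Untreated group, the order Ptgis had too. None of them was at 0 in all libraries. Against Untreated, 5 of the 8 were lower in CNV and 3 not called, and 3 were lower in BetP-Gel@Ran and 5 not called. The 8 endothelial and mural cell markers summed to 80.9 to 108 FPKM in BetP-Gel@Ran, 103 to 154 in CNV and 89.4 to 136 in Untreated libraries, with overlap between the groups. The rod marker sums given above were also higher in the Untreated libraries than in all others, as were Ptgis and Ptges2. So were the sums of 8 skeletal muscle markers, which spanned 4720 to 5331 FPKM for Untreated. For BetP-Gel@Ran they spanned 1197 to 1417 FPKM, and for CNV 829 to 1416 FPKM. The part of stromal cell number in the Ptgis difference was not tested. Nor was the part of rod or muscle RNA in the Ptgis and Ptges2 differences.

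Ptgds, the lipocalin-type prostaglandin D2 synthase gene (ENSMUSG00000015090, chromosome 2, 25466709 to 25470046, - strand), which in the eye is known from the pigment epithelium and other linings, was by far the most abundant of the 10. It had 1148, 1073 and 723 FPKM in BetP-Gel@Ran, 755, 1027 and 994 in CNV and 1032, 1144 and 1338 in Untreated replicates 1 to 3. Ptgds alone held 87.8% to 93.2% of the summed FPKM of the 10 genes in each library. The CNV libraries were all below the Untreated ones, but the highest CNV value and the lowest Untreated value were only 1027 and 1032 FPKM, and the difference was not called (log2 -0.34, 95% interval -0.78 to 0.09, limma adjusted p = 0.175). BetP-Gel@Ran was not called against CNV (0.07, limma adjusted p = 0.834) or against Untreated (-0.28, adjusted p = 0.296). Markers of the pigment epithelium summed to 780 to 858 FPKM in BetP-Gel@Ran, 779 to 1170 in CNV and 733 to 1002 in Untreated libraries. For these sums each group overlapped both others.

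Hpgd, whose enzyme starts the breakdown of PGE2 (ENSMUSG00000031613, chromosome 8, 56294585 to 56321043, + strand), was low where Ptgs2 and Ptges were high. It had 9.36, 11.0 and 12.3 FPKM in BetP-Gel@Ran, 6.03, 5.59 and 8.92 in CNV and 10.7, 10.5 and 10.6 in Untreated replicates 1 to 3. All CNV libraries were below all others, CNV replicate 3 by least. The log2 fold change was -0.59 ± 0.15 for CNV against Untreated (limma adjusted p = 0.0106) and 0.62 ± 0.15 for BetP-Gel@Ran against CNV (limma adjusted p = 0.0291). The second call was lost without BetP-Gel@Ran replicate 2 (adjusted p = 0.0870) or 3 (0.0940), or without CNV replicate 1 (0.103) or 2 (0.101). It was also lost with no filter (0.0699) and in a fit of only the groups compared (0.0669). With the lens markers as a covariate the log2 fold changes were -0.45 for CNV against Untreated and 0.45 for BetP-Gel@Ran against CNV, and neither was called (adjusted p = 0.169 and 0.351). For BetP-Gel@Ran against Untreated the log2 fold change was 0.03, with a 95% interval of -0.31 to 0.36 (limma adjusted p = 0.906).

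The ratio of Ptges to Hpgd FPKM, a gene of PGE2 synthesis over one of its removal, was 0.707, 0.445 and 0.570 in BetP-Gel@Ran replicates 1 to 3. It was 2.43, 2.67 and 1.12 in CNV and 0.630, 0.658 and 0.617 in Untreated replicates. Ptges exceeded Hpgd in every CNV library and in none of the other 6. CNV replicate 3 was nearest to the other groups for Ptgs2, Ptges and Hpgd alike.

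**Figure D3:**
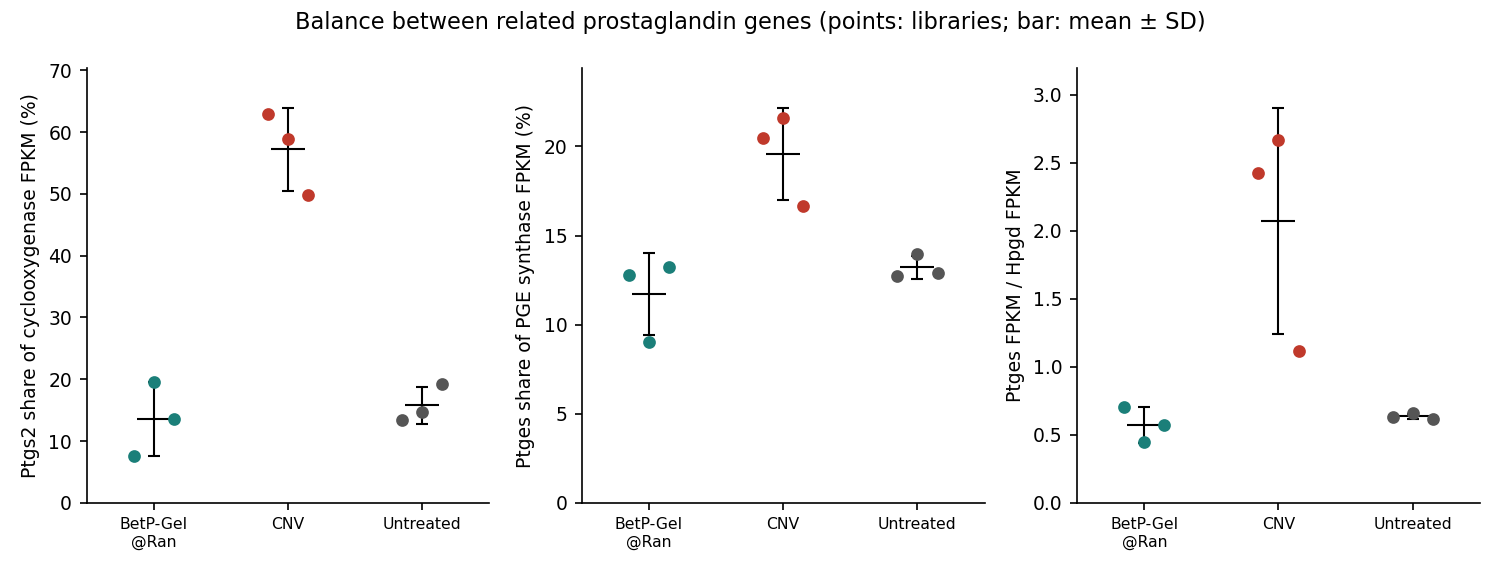
Share of Ptgs2 in the summed FPKM of Ptgs1 and Ptgs2 (left), share of Ptges in that of Ptges, Ptges2 and Ptges3 (middle) and ratio of Ptges to Hpgd FPKM (right) in each library, by group, with mean ± SD. The CNV libraries lie above all others in each panel, at 49.9% to 63.0%, 16.7% to 21.6% and 1.12 to 2.67.

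The PGE2 receptor genes were near the limit of detection. Ptger4, which encodes the EP4 receptor (ENSMUSG00000039942, chromosome 15, 5206661 to 5244187, - strand), had 0.721, 0.475 and 0.478 FPKM in BetP-Gel@Ran, 1.15, 0.651 and 0.653 in CNV and 0.310, 0.330 and 0.205 in Untreated replicates 1 to 3. These rest on 54 to 84 reads in BetP-Gel@Ran, 76 to 152 in CNV and 22 to 39 in Untreated libraries, which were below all others. In a fit with no filter on low values, Ptger4 was higher in CNV than in Untreated (log2 0.50 ± 0.12, limma adjusted p = 0.0212), and BetP-Gel@Ran was not called against CNV (adjusted p = 0.402) or Untreated (0.191). The gene overlaps Ttc33 on the other strand, listed at 12.1 to 16.4 FPKM, so its reads are uncertain. Ptger2, the EP2 receptor gene (ENSMUSG00000037759, chromosome 14, 44988195 to 45003820, + strand), had 0.0879, 0.0640 and 0.215 FPKM in BetP-Gel@Ran, 0.214, 0.329 and 0.145 in CNV and 0.113, 0.239 and 0.227 in Untreated replicates. With 6 to 30 reads per library and overlapping groups, a difference was not detectable at this depth (adjusted p = 0.479 to 0.786 with no filter, limma).

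The rest of the pathway was read from 5 lists of 49 genes, of which 30 were tested. For CNV against Untreated 8 were higher and 8 lower, for BetP-Gel@Ran against CNV 1 higher and 3 lower, and for BetP-Gel@Ran against Untreated 7 higher and 5 lower. These are 53.3%, 13.3% and 40.0% of the 30, beside 44.6%, 14.1% and 34.2% called over all tested genes. The median log2 fold changes were 0.07, 0.03 and -0.03, beside 0.01, 0.00 and -0.01 over all tested genes. With the lens covariate none of the 4 calls for BetP-Gel@Ran against CNV held (Ptgr1 log2 0.92, Alox5ap -0.89, Ltb4r1 -0.74 and Akr1c18 -0.56, limma adjusted p = 0.136 to 0.467). For CNV against Untreated, Akr1c18, Fam213b, Ptgfrn, Alox5, Alox15 and Ltb4r1 lost their calls with it (limma adjusted p = 0.0547 to 0.338). For BetP-Gel@Ran against Untreated, Lta4h did (limma adjusted p = 0.0678).

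Of the 16 phospholipase A2 genes, which supply arachidonic acid, 10 were tested, with 2 higher and 2 lower in CNV than in Untreated, or 40.0% called beside 44.6% of all tested genes. Pla2g4a, the cytosolic enzyme gene best known for feeding cyclooxygenases, was at 8.23 ± 0.404 FPKM in BetP-Gel@Ran, 9.52 ± 1.26 in CNV and 9.39 ± 0.288 in Untreated libraries (SD, n = 3 each), and was not called in any comparison. Pla2g2d, a secreted form of lymphoid tissue, was at 2.91 ± 0.511 FPKM in BetP-Gel@Ran, 2.49 ± 0.820 in CNV and 0.236 ± 0.0474 in Untreated libraries (SD, n = 3 each). It was higher in CNV (log2 1.47, limma adjusted p = 1.86e-04) and in BetP-Gel@Ran (1.65, adjusted p = 2.17e-04) than in Untreated libraries. It was thus called in BetP-Gel@Ran against Untreated, where Ptgs2 was not. Pla2g15, the lysosomal phospholipase gene, was higher in both too (log2 0.85 and 0.51), and Pla2g12a, a secreted form, lower in both (-0.62 and -0.55). Pla2g2f, a secreted form of epithelia, was lower in CNV than in Untreated (log2 -0.83). No phospholipase A2 gene was called for BetP-Gel@Ran against CNV, but Pla2g15, Pla2g16 and Pla2g4a were without CNV replicate 3 (limma adjusted p = 0.0247, 0.00703 and 0.04995).

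Among 6 other prostanoid synthase genes, 5 were tested. Akr1c18, an aldo-keto reductase gene with prostaglandin F synthase activity, had 5.20, 4.36 and 6.15 FPKM in BetP-Gel@Ran, 11.7, 15.8 and 6.80 in CNV and 4.25, 6.34 and 5.18 in Untreated replicates 1 to 3. It was higher in CNV than in Untreated (log2 0.94, limma adjusted p = 0.0156) and lower in BetP-Gel@Ran than in CNV (-0.94, adjusted p = 0.0427). The first call was lost without Untreated replicate 1 (adjusted p = 0.0548), and the second without any single library other than CNV replicate 3 (adjusted p = 0.0529 to 0.128). Akr1b3 and Cbr1, whose enzymes can also form F-type prostaglandins, had log2 fold changes of -0.57 and -0.63 for CNV against Untreated, both called. Both were lower in BetP-Gel@Ran than in Untreated too (-0.47 and -0.33, limma adjusted p = 0.00506 and 0.0337), the call of Cbr1 being lost without any 1 of the BetP-Gel@Ran or Untreated libraries (adjusted p = 0.0537 to 0.111). Hpgds, the prostaglandin D synthase gene of mast cells and other blood cells, was higher in BetP-Gel@Ran (9.81 ± 0.521 FPKM) than in Untreated libraries (6.26 ± 0.727 FPKM; SD, n = 3 each; limma adjusted p = 0.0108). In CNV it was at 7.19 ± 1.53 FPKM (SD, n = 3) and was not called against Untreated (limma adjusted p = 0.368). It was called there without CNV replicate 1 (adjusted p = 0.0346). BetP-Gel@Ran was not called against CNV (adjusted p = 0.0695), but was without CNV replicate 3 (0.0275) and with voom (0.0408). The 7 mast cell markers summed to 63.2 to 66.7 FPKM in BetP-Gel@Ran, 61.5 to 75.6 in CNV and 34.6 to 44.5 in Untreated libraries. None of these markers was at 0 in all libraries, and their part in the Hpgds difference was not tested.

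Of 5 transport and breakdown genes, 4 were tested, and Ptgr1 followed Hpgd. Ptgr1 encodes a reductase that inactivates oxidised prostaglandins and leukotriene B4. It had 178, 142 and 145 FPKM in BetP-Gel@Ran, 71.7, 72.4 and 106 in CNV and 235, 200.1 and 199.7 in Untreated replicates 1 to 3. The groups did not overlap, and the gene was lower in CNV than in Untreated (log2 -1.35, limma adjusted p = 2.01e-04) and higher in BetP-Gel@Ran than in CNV (0.90, adjusted p = 0.0117). BetP-Gel@Ran was not called against Untreated (-0.45, adjusted p = 0.0556), but was in 5 alternatives: without CNV replicate 3 (0.0126) or BetP-Gel@Ran replicate 1 (0.0426), with a filter of 5 FPKM (0.0457), in a fit of only the groups compared (0.0208) and with voom (0.0400). The corneal epithelium marker sums given above had this same order of groups, and 5 of those 7 markers were lower in CNV than in Untreated, with 2 higher. The part of epithelial RNA in the Hpgd and Ptgr1 differences was not tested. Abcc4, a PGE2 exporter gene, and Zadh2, another reductase gene, were higher in BetP-Gel@Ran than in Untreated (log2 0.45 and 0.32, limma adjusted p = 0.00560 and 0.00850).

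Of the 8 other prostanoid receptor genes only Ptgfr and Ptgfrn were tested, and Ptgfrn, which encodes a protein associated with the prostaglandin F receptor, was higher in CNV than in Untreated (log2 0.23, limma adjusted p = 0.0388). That call was lost without BetP-Gel@Ran replicate 3, CNV replicate 1 or 2, or any 1 Untreated library (adjusted p = 0.0541 to 0.131). The other PGE2 receptor genes, Ptger1 and Ptger3, stayed at or below 0.457 FPKM in every library.

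The parallel lipoxygenase branch turns arachidonic acid into leukotrienes, and 9 of its 14 genes were tested. For CNV against Untreated 4 were higher and 2 lower, for BetP-Gel@Ran against CNV 2 were lower and 7 not called, and for BetP-Gel@Ran against Untreated 2 were higher and 2 lower. The shares called were 66.7%, 22.2% and 44.4%, beside 44.6%, 14.1% and 34.2% of all tested genes. Alox5ap, whose product presents arachidonic acid to 5-lipoxygenase, had 8.24, 6.87 and 7.13 FPKM in BetP-Gel@Ran, 12.7, 16.9 and 12.2 in CNV and 4.19, 4.44 and 5.85 in Untreated replicates 1 to 3. It was higher in CNV than in Untreated (log2 1.35, limma adjusted p = 1.02e-04), lower in BetP-Gel@Ran than in CNV (-0.82, adjusted p = 0.0108) and higher in BetP-Gel@Ran than in Untreated (0.54, adjusted p = 0.0173). The last call was lost without BetP-Gel@Ran replicate 1 (adjusted p = 0.0579) or without Untreated replicate 1 (0.0641) or 2 (0.0584). Ltb4r1, the leukotriene B4 receptor gene of granulocytes and macrophages, was at 1.57 ± 0.0576 FPKM in BetP-Gel@Ran, 4.34 ± 1.92 in CNV and 1.13 ± 0.192 in Untreated libraries (SD, n = 3 each). It was called in CNV against Untreated (log2 1.26, limma adjusted p = 0.00221) and in BetP-Gel@Ran against CNV (-0.99, adjusted p = 0.0270), the second call being lost without any 1 BetP-Gel@Ran library or CNV replicate 1 or 2 (adjusted p = 0.0644 to 0.0956). Cysltr1, a cysteinyl leukotriene receptor gene, was higher than in Untreated libraries in CNV (log2 0.94) and in BetP-Gel@Ran (0.64). Alox15, the 12/15-lipoxygenase gene, was lower in both (-0.82 and -0.96, limma adjusted p = 0.0239 and 0.0165). The CNV call was lost without CNV replicate 1 or 3 or Untreated replicate 2 or 3 (adjusted p = 0.0710 to 0.0795), and the BetP-Gel@Ran call without BetP-Gel@Ran replicate 2 or 3 or Untreated replicate 2 (0.0510 to 0.0552).

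**Figure D4:**
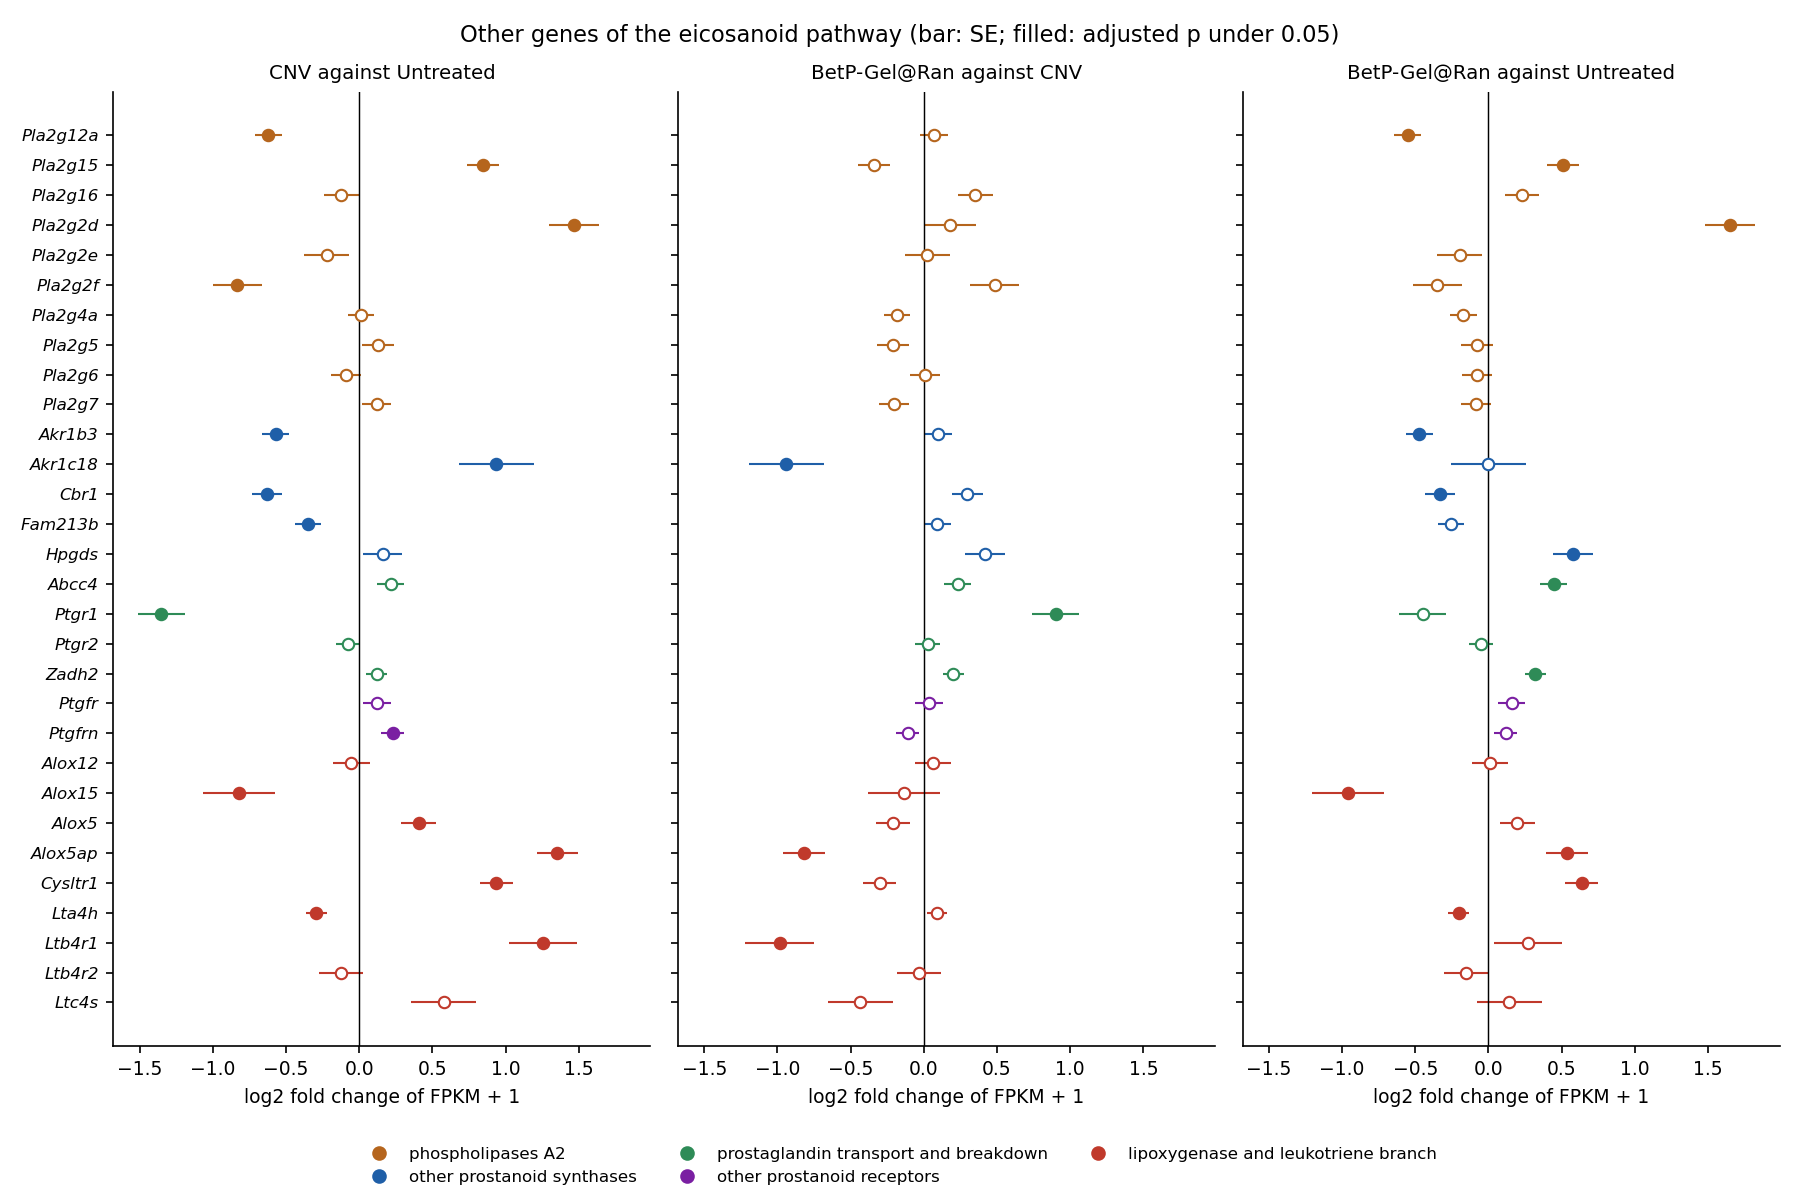
Log2 fold change of FPKM + 1 (x axis) with its SE for the 30 tested genes of 5 pathway lists (rows, coloured by list) in the 3 comparisons; filled points have a limma adjusted p under 0.05. Ptgr1 lies at -1.35 in CNV against Untreated and 0.90 in BetP-Gel@Ran against CNV, while Pla2g2d is at 1.47 in CNV and 1.65 in BetP-Gel@Ran against Untreated.

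Myeloid markers moved with Ptgs2 and Ptges in CNV libraries. The 12 microglia and macrophage markers summed to 934 to 1188 FPKM in BetP-Gel@Ran, 1704 to 2539 in CNV and 475 to 514 in Untreated libraries, with none at 0 in all of them. All 12 were higher in CNV than in Untreated and all 12 were higher in BetP-Gel@Ran than in Untreated, while 10 of 12 were lower in BetP-Gel@Ran than in CNV. The 10 neutrophil markers summed to 16.5, 16.5 and 125 FPKM in BetP-Gel@Ran, 449, 783 and 328 in CNV and 27.6, 39.0 and 25.1 in Untreated replicates 1 to 3. Most of each CNV sum came from S100a8 and S100a9. These had 131 and 295 FPKM in CNV replicate 1, 225 and 517 in replicate 2, and 106 and 209 in replicate 3. Mpo was at 0 in every library, and Elane and Ly6g had 1 and 22 reads over all libraries. Mmp8 had 1.94, 4.61 and 0.973 FPKM in CNV replicates 1 to 3 and at most 0.188 elsewhere. Mpo, Elane, Ly6g and Mmp8 were not tested. Of the 10 markers 6 were tested, all 6 higher in CNV than in Untreated and lower in BetP-Gel@Ran than in CNV. Cxcr2, like Ptgs2, passed the filter through its CNV libraries alone, and without it 5 of 5 were called in each of these comparisons. CNV replicate 3, with the lowest Ptgs2 of its group, also had the lowest sum of both lists there, but CNV replicate 2 had the highest sums and not the highest Ptgs2. In BetP-Gel@Ran libraries the macrophage markers were above Untreated while Ptgs2 and Ptges were not called. The part of myeloid cells in the Ptgs2 and Ptges differences was not tested.

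**Figure D5:**
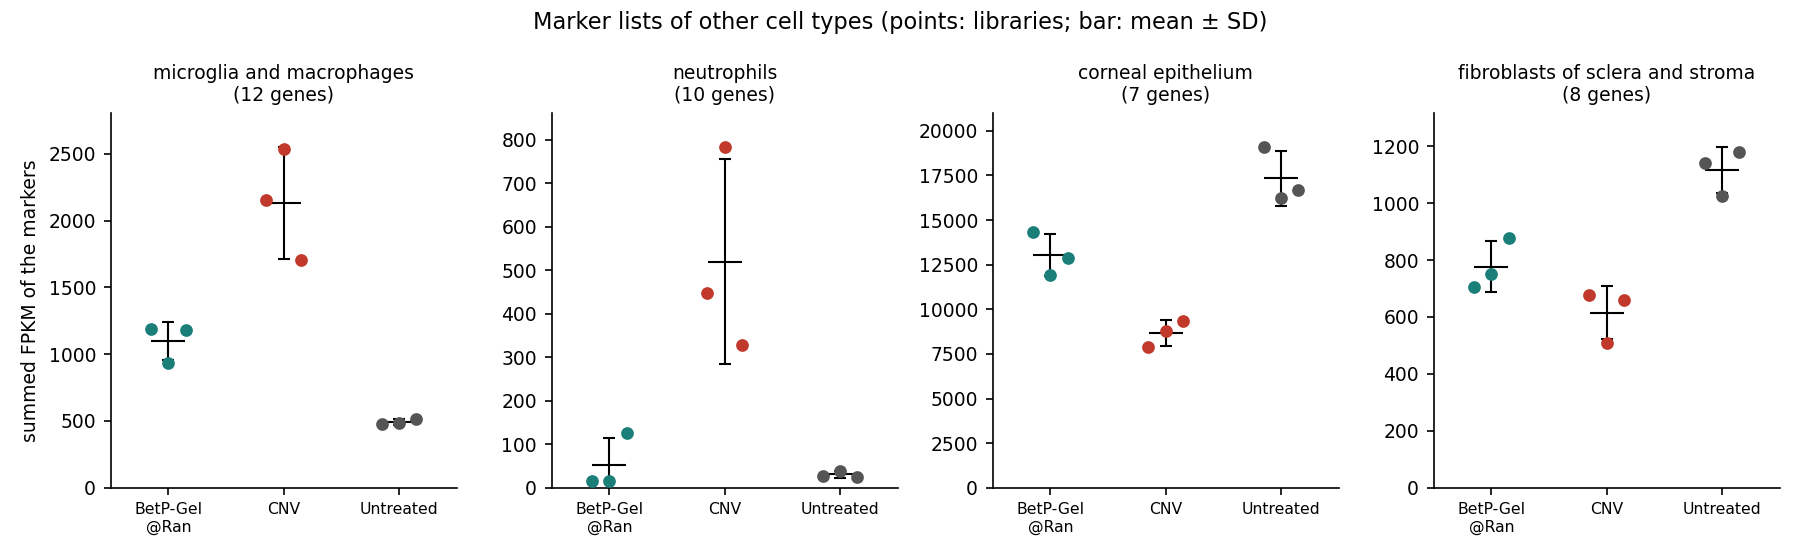
Summed FPKM of 4 marker lists (1 panel each, linear axes from 0) in each library by group, with mean ± SD. Macrophage sums are 934 to 1188 in BetP-Gel@Ran, 1704 to 2539 in CNV and 475 to 514 in Untreated libraries, and corneal epithelium and fibroblast sums are lowest in CNV.

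Genes whose profile over the 9 libraries was nearest to that of Ptgs2, by the root mean square difference of centred log2(FPKM + 1), were the noncoding RNA gene Wincr1 (0.154), Trem1 (0.172), a receptor gene that amplifies inflammatory signals in neutrophils and monocytes, and Tnfrsf23 (0.204), a decoy receptor gene. Trem1 had 0.0762, 0.111 and 0.236 FPKM in BetP-Gel@Ran, 3.79, 3.31 and 1.81 in CNV and 0.0590, 0.113 and 0.0207 in Untreated replicates 1 to 3. Wincr1, Trem1 and Tnfrsf23 reached 1 FPKM in the CNV libraries alone, so like Ptgs2 they passed the filter only through them. They were picked for their likeness to Ptgs2, so a shared order of libraries follows from that choice. Nearest to Ptgds were Papss2 (0.136), a gene of sulfate activation, Zfp13 (0.138) and Poli (0.148). These distances describe likeness of profile over shared libraries and carry no test.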

How the data were processed

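RNA was extracted with Trizol, selected with poly-T beads and made into libraries with a NEBNext Ultra kit, per the labels' protocols. The submitters' processing notes name HTSeq 0.6.0 and mm10, and no aligner is named there. The authors deposited FPKM for 54532 genes. FPKM times gene length gave whole multiples of 1 step in each library (100% of values up to 2000 reads, tolerance 0.05), from which reads were recovered for depth and for 1 alternative. Depth was 16990118 to 18753737 reads on genes per library.

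Genes reaching 1 FPKM in 3 or more libraries (14086) were fitted as log2(FPKM + 1) with limma 3.58.1 (R 4.3.3, statmod 1.5.0; trend and robust options), 1 mean per group over all 9 libraries. P-values were two-sided and adjusted by Benjamini-Hochberg over all genes tested, with a threshold of 0.05. Fold changes on this scale understate changes of low genes. Members and lists were chosen with earlier results of these data known. All 10 members are named, up to 3 called genes per pathway list and comparison, and the 3 nearest profiles to Ptgs2 and Ptgds, leaving out Gm and Rik symbols; other list genes named were chosen after their values were seen. The fit was tested on simulated data. Deposited coordinates of the 10 genes equal GENCODE M21.

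Alternatives were quantile normalization, division of FPKM by its sum, a pseudocount of 0.1, a filter of 5 FPKM or none, a fit of the groups compared, neither trend nor robust, a replicate block, limma voom on recovered reads and each library left out. Reads scaled to each library's total and a lens marker covariate were added after the data were examined. Same-group libraries differed beyond counting error (chi-square per gene 8.34 to 43.7).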

Additional observations from a re-analysis of the deposited data

How the results depend on the processing

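Of 474 member results under the alternatives, 441 kept their direction and side of the threshold, 12 lost a call, 9 gained one and 12 that were not called changed sign; of 1770 results of pathway genes 1620 kept both, 47 that were not called changed sign, and no called result reversed. In BetP-Gel@Ran against CNV, Ptgds turned to -0.059, -0.0096 and -0.071 without BetP-Gel@Ran replicate 1 or 2 or CNV replicate 1 and to -0.10 with the lens covariate, and Ptges2 to 0.0033 without CNV replicate 1. In BetP-Gel@Ran against Untreated, Ptgs2 turned to 0.10, Ptges to 0.016 and Hpgd to -0.058 without BetP-Gel@Ran replicate 1, 2 and 3 in turn, and Ptgs1 to -0.040 without Untreated replicate 3 (all log2); the other 3 sign changes are given with Ptgs1 and Ptgis. For CNV against Untreated, 6281 genes were called, against 3846 with a filter of 5 FPKM, which tests fewer genes and leaves out Ptgs1 and Ptgs2. For BetP-Gel@Ran against CNV, 1983 were called, against 853 with no filter and 1189 in a fit of only the groups compared. With the lens covariate 3842 genes and 3 members were called for CNV against Untreated, and 19 genes and 0 members for BetP-Gel@Ran against CNV (limma); the cause was not tested. Leaving out 1 library at a time gave 446 (without CNV replicate 1) to 3215 (without CNV replicate 3) genes and 2 to 5 members for BetP-Gel@Ran against CNV. It gave 3198 (without BetP-Gel@Ran replicate 3) to 5129 genes for BetP-Gel@Ran against Untreated, where all libraries gave 4813. Leave-one-out member counts were 6 to 7 for CNV against Untreated and 2 to 3 for BetP-Gel@Ran against Untreated. With the replicate block the members called remained 6, 3 and 2 in number and the genes called were 6048, 1398 and 4467. Deviations of same-numbered libraries from their group means correlated at -0.148 to 0.0841. With 3 libraries per group, such values cannot exclude a shared animal or batch. Of the called genes, 50.4% were higher in CNV than in Untreated, against 62.3% with reads scaled to library totals, and 47.1% were higher in BetP-Gel@Ran than in Untreated, against 63.0% with FPKM divided by its sum and 58.8% with reads scaled to library totals. For BetP-Gel@Ran against CNV 41.3% were higher, and no such scaling moved that share by over 10 points. Depth limits most the receptor genes, with 6 to 152 reads, and Ptgs2 outside CNV. Ptgs2 had 20 to 64 reads in BetP-Gel@Ran and 38 to 47 in Untreated libraries.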
